A study of Mus musculus with 23 samples.

Results

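Neurons release transmitter when vesicles held at the presynaptic active zone fuse with the plasma membrane. A set of 34 genes for this release machinery was followed in RNA-seq counts of mouse cortex, out of 39017 entries in the count table. The members were given as a list of gene symbols, and each was matched to the count table by its symbol. They have 35 entries, because Pclo has 2, and all 35 passed the filter on low counts in every comparison. Total RNA from pulverised cortex had been depleted of ribosomal RNA and sequenced from 22 animals. At 10 weeks there were 3 animals with glycine 34 of the histone variant H3.3 changed to arginine (G34R), 3 with valine (G34V), 2 with tryptophan (G34W) and 6 wild type (WT) animals. At postnatal day 7 there were 4 G34R and 4 WT animals. The labels give every mutant as heterozygous at H3f3a, a gene of H3.3, and every WT animal as carrying no such allele. No Cre, driver, strain or treatment is given in the labels. All 10-week animals were labelled male except 1 of the 2 G34W animals, whose label is female although its title begins with M, and each day-7 group held 2 males and 2 females. The title of the series names recruitment of the DNA methyltransferase DNMT3A and progressive neurodegeneration as its subjects.

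In release, vesicles are primed by Munc13 and RIM proteins at the active zone, the SNARE proteins of vesicle and plasma membrane zip together, complexins hold the assembled complex, and synaptotagmins trigger fusion when calcium enters. NSF and its adaptors, the SNAP proteins, then take the spent SNARE complexes apart so that they can be used again. Cortical projection neurons load glutamate into vesicles mainly with the transporter encoded by Slc17a7, while Slc17a6 encodes the transporter that dominates in thalamus and brainstem and in many immature neurons.

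Libraries held 32.3 to 90.1 M counts at 10 weeks and 28.4 to 53.5 M at day 7, and a member had between 177 and 214839 counts in an animal. Counts per gene do not read the substitution itself. H3f3a lay between 38.4 and 45.6 CPM in the 8 mutants and between 41.5 and 49.8 CPM in WT at 10 weeks, and it was lower in G34R at day 7 (60.7 ± 1.66 against 72.5 ± 3.03 CPM in WT, SD, n = 4 each). CPM here are counts scaled to library size, on 1 TMM scale over all animals. The H3f3a difference at day 7 had a log2 fold change of -0.25 (SE 0.0416, adjusted p = 0.0429, edgeR). The 10-week libraries were divided into 2 sets by the share of counts from mitochondrially encoded protein genes, at a set cut of 1.1%. The shares were spread from 0.886% to 1.36%, with 1.028% and 1.116% nearest to the cut, so the sets have no wide gap between them. All 3 G34R libraries, 2 WT animals and 1 of the 2 libraries of another WT animal lay below a share of 1.1%, and all G34V and G34W libraries lay above it with the other WT libraries. Of 15 pan-neuronal markers none passed the test in G34R, G34V or G34W against WT at 10 weeks, and their summed level was 5056 to 5168 CPM in G34R, 5291 to 5636 CPM in G34V, 5482 to 5745 CPM in G34W and 5280 to 5741 CPM in WT. The pan-neuronal sums of all G34R animals lay below those of all WT animals. Single markers of cortical projection neurons did pass the test. Fezf2 and Neurod6 were lower in G34R (11.85 against 17.72 CPM in WT, adjusted p = 0.00793, and 43.59 against 55.48 CPM, adjusted p = 0.0385). In G34W Neurod6 was lower (34.71 CPM, adjusted p = 0.00823) and Rorb, a marker of layer 4, higher (87.98 against 67.26 CPM in WT, adjusted p = 0.0408), and Rorb was also higher in G34V (84.89 CPM, adjusted p = 0.0209). Of 8 astrocyte markers 1 was called, Slc4a4, which was higher in G34W (230.3 against 173.9 CPM in WT, adjusted p = 0.022). Of 6 immature-neuron markers 1, Sox4, was higher in G34R (29.54 against 23.93 CPM in WT, adjusted p = 0.0166). Of 5 cerebellar markers tested 1, Car8, was higher in G34R (23.68 against 14.47 CPM in WT, adjusted p = 3.47e-05) and in G34V (18.43 CPM, adjusted p = 0.0275). None of 6 hippocampal or 8 striatal markers was called. Choroid plexus markers, from tissue next to the cortex, varied widely and summed to 445.1 to 745.7 CPM in G34R, 243.2 to 1064 CPM in G34V, 14.8 to 206.1 CPM in G34W and 153.7 to 951.3 CPM in WT. Of 8 microglial markers, 7 were higher in G34R (summed level 564.5 to 637.9 CPM against 349.6 to 386.6 CPM in WT), 4 in G34V and none in G34W at 10 weeks, and 3 in G34R at day 7. Of 8 oligodendrocyte markers, 4 were lower in G34V, 1 in G34W and none in G34R. Their summed level was 4280 to 5593 CPM in WT. It was 3211 to 4134 CPM in G34R, 2668 to 3484 CPM in G34V and 2894 to 4390 CPM in G34W. In RNA from whole tissue, fewer cells of a type and less RNA per cell cannot be told apart. Exons of 12 members overlap a gene on the other strand: Syn1, Syn2, Syn3, Syp, Sv2b, Syt4, Syt7, Doc2a, Doc2b, Rab3a, Unc13a and Pclo. The strand setting of the counting is not stated in the sources used here, so for these members reads of both genes may be mixed.

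The promoters of 4 members are shown because the transcripts of Rims1, Vamp1 and Slc17a6 were lower in a 10-week mutant and because Slc17a7 is the second glutamate transporter of the set. DNMT3A methylates cytosines, most often where guanine follows, so each CG is in capitals. The sequences are RefSeq promoters of GRCm38.p6, from 250 bases before to 50 bases after the start, 5′ to 3′ on the strand of the gene. Rims1 lies at chr1:22806109-22806408 on the minus strand, and Vamp1 at chr6:125215331-125215630, the upstream start of Slc17a6 at chr7:51621580-51621879 and Slc17a7 at chr7:45163671-45163970 on the plus strand.
Rims1: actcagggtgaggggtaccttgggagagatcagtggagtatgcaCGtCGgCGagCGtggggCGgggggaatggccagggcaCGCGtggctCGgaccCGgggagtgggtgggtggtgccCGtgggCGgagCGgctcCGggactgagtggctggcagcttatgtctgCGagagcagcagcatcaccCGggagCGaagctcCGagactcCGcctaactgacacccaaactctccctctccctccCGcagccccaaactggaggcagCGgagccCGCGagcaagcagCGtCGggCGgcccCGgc
Vamp1: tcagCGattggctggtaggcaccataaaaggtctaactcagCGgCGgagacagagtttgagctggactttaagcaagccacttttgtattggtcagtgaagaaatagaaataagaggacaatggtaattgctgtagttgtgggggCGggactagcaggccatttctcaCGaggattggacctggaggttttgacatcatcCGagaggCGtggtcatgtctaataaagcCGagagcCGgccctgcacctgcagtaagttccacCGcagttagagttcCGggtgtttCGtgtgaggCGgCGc
Slc17a6: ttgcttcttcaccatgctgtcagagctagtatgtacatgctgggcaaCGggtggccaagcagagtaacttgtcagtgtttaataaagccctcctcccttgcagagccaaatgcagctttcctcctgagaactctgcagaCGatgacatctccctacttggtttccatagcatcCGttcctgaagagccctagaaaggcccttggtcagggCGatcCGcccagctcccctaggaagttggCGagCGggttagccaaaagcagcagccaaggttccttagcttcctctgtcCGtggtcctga
Slc17a7: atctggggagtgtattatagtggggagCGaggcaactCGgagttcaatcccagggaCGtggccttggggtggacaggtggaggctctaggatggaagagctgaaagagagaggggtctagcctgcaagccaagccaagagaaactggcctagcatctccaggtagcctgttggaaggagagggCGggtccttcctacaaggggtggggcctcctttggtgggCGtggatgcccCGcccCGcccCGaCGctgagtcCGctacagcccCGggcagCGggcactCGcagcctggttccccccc
These windows hold 26 CG dinucleotides in Rims1, 14 in Vamp1, 8 in Slc17a6 and 13 in Slc17a7, counted on 1 strand. Of the 34 members, 25 had a promoter in the table, with 33 windows of 300 bases. Their median was 18 CG dinucleotides, against 7 over all 32851 promoter windows. The Sp1-type box GGGCGG, searched on both strands, was in 60.6% of the member windows and 35.7% of all windows, and TATAAA in 6.06% and 13.6%. The box occurred 3 times in Rims1, once in Vamp1, once in the upstream window of Slc17a6 and 3 times in Slc17a7. TGACG, the core of the cAMP response element, was in 24.2% of the member windows and 20.8% of all windows. GGGCGG holds a CG, so the CG count and the box overlap. Methylation was not measured in these samples.

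Per kilobase of exon, the most abundant member in WT cortex at 10 weeks was Snap25, the plasma-membrane SNARE with a pair of helices in the fusion complex, at 316.9 ± 31.5 CPM per kb (SD, n = 6). The next were Syt1, the main fast calcium sensor of forebrain, at 165.9 ± 11.04, Cplx2, a complexin, at 163.7 ± 21.95, Slc17a7 at 158.3 ± 10.3, Rab3a, a vesicle GTPase that binds RIM, at 155.5 ± 10.3, and Syp, the vesicle protein synaptophysin, at 151.7 ± 6.48 CPM per kb. Snap25 stood above Syt1 by more than the SD of either gene. From Syt1 through Cplx2, Slc17a7 and Rab3a to Syp, each gene differed from the next by less than either SD. At the low end were Sv2c, a vesicle glycoprotein, at 2.34 ± 0.458, and Unc13b, the gene of Munc13-2, at 1.94 ± 0.167 CPM per kb. The exon length was merged over all annotated exons of a gene, 22.7 kb for Unc13b and 12.6 kb for Unc13a. The order per kb depends on that length. In CPM, Unc13b (44.0) lay above Sv2c (22.7) and Cplx3 (13.6). At day 7 the order was led by Cplx2 at 137.6 ± 11.2, Rab3a at 118.1 ± 5.24 and Syt1 at 102.7 ± 9.75 CPM per kb (SD, n = 4), and Snap25 ranked 8 of 34 at 62.1 ± 5.11. Vamp1, a vesicle SNARE of fast-firing neurons, ranked 26 at 10 weeks and 34 at day 7, and Syt2, the fast calcium sensor known from parvalbumin interneurons and brainstem, ranked 28 at 10 weeks and 33 at day 7. Among the 6 WT animals at 10 weeks the coefficient of variation was lowest for Rims1 at 2.66% and highest for Unc13c at 23.1%. The large scaffolds Bsn and Pclo (ENSMUSG00000061601) varied by 16.8% and 16.9%.

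**Figure D1:**
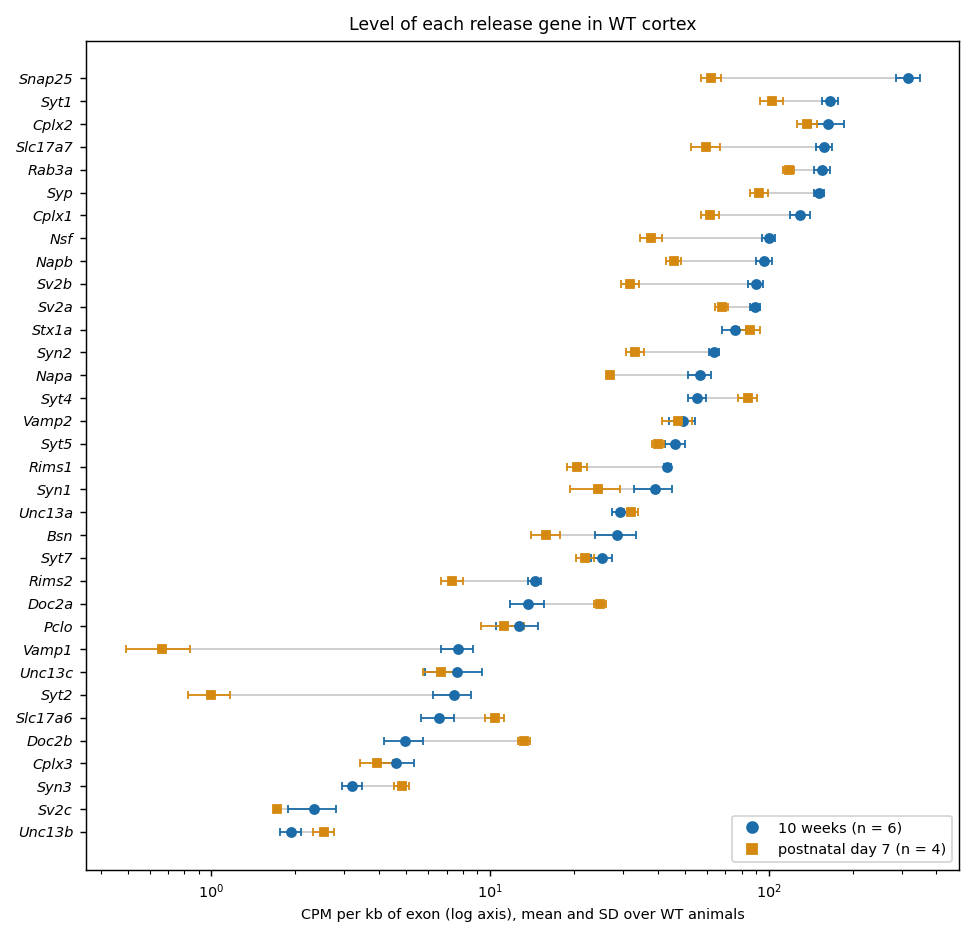
Level of each member in WT cortex, in CPM per kilobase of exon on a log axis, as mean and SD over 6 animals at 10 weeks (circles) and 4 at postnatal day 7 (squares), ordered by the 10-week level. Snap25 leads at 10 weeks with 316.9 CPM per kb and Vamp1 is last at day 7 with 0.666 CPM per kb, and the second Pclo entry, which has no exon length, is not drawn.

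Between day 7 and 10 weeks most of the release machinery changed in WT cortex. By the quasi-likelihood test of edgeR, with p adjusted by Benjamini-Hochberg over all genes, 22 of 35 entries rose and 8 fell. Among all 22426 genes tested, 33.3% rose and 34.4% fell, and 67.7% were called in either direction. The median log2 fold change was 0.39 over the members and -0.012 over all genes. Levels at 10 weeks and day 7 did not overlap for 19 higher and 7 lower entries, against 26.7% and 27.8% of all genes. The 10-week WT animals were all male, and all 10-week libraries had a mitochondrial share (0.886% to 1.36%) above that of the day-7 libraries (0.733% to 0.885%). The labels name no preparation batch, so a batch shared by one age cannot be told apart from age. The neuronal markers around them moved both ways: of 15 pan-neuronal genes 6 rose and 9 fell, all 6 immature-neuron markers fell, and all 8 oligodendrocyte markers rose. Of 8 astrocyte markers 6 rose and 2 fell, and all 8 striatal markers rose.

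Of the 7 vesicle proteins and synapsins, 6 rose and 1 fell. Sv2b, a vesicle glycoprotein of forebrain neurons, was at 680.2 to 815.2 CPM (median 744.7) at 10 weeks and at 257.2, 288.1, 278.3 and 245.9 CPM at day 7, a log2 fold change of 1.49 (SE 0.0609, adjusted p = 2.29e-16). The other SV2 genes moved less, Sv2c by 0.44 (SE 0.14, adjusted p = 0.00887) and Sv2a by 0.39 (SE 0.0468, adjusted p = 7.69e-08). Syp rose by 0.71, and of the synapsins, which tether vesicles to each other and to actin, Syn2 rose by 0.94 and Syn1 by 0.67 on the log2 scale. Syn3, the synapsin known from early development, fell by 0.59 (36.9 to 45.9 CPM, median 38.3, at 10 weeks and 53.8 to 62.0 CPM at day 7, SE 0.0635, adjusted p = 1.18e-08).

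The calcium sensors split, with 4 of 7 higher and 3 lower at 10 weeks. Syt2 was at 45.0 to 65.7 CPM (median 59.4) at 10 weeks and at 7.89, 6.46, 9.27 and 6.72 CPM at day 7, a 7.45-fold difference (log2 2.90, SE 0.171, adjusted p = 1.39e-11). Every 10-week animal lay far above every day-7 animal. Syt1 rose by 0.69, while Syt5 and Syt7 rose by only 0.20 each, and Syt7, a slower high-affinity sensor, and Syt5 lost the call with sex in the model (adjusted p = 0.0543 and 0.0772). Those that fell were the high-affinity sensors Doc2b and Doc2a, linked to spontaneous and asynchronous release, and Syt4, a synaptotagmin whose first calcium-binding domain does not bind calcium. Doc2b was at 17.6 to 26.0 CPM (median 21.02) at 10 weeks and at 59.4, 53.3, 58.6 and 59.6 CPM at day 7 (log2 -1.43, SE 0.107, adjusted p = 1.04e-10). Doc2a was at 31.9 to 45.4 CPM (median 39.6) against 71.0, 71.7, 64.7 and 71.8 CPM at day 7 (log2 -0.86, SE 0.077), and Syt4 at 200.2 to 240.8 CPM (median 212.4) against 317.3, 365.2, 309.3 and 320.7 CPM (log2 -0.61, SE 0.0559). For all 3 the ages did not overlap.

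Among the SNARE proteins, Vamp1 had the largest change of the whole set. Its level was 62.8 to 90.1 CPM (median 77.0) at 10 weeks and 5.87, 5.97, 9.42 and 5.82 CPM at day 7, an 11.5-fold difference (log2 3.52, SE 0.153, adjusted p = 5.95e-14). Snap25 was at 1845 to 2479 CPM (median 2146) at 10 weeks and at 460.5, 440.4, 399.2 and 386.4 CPM at day 7, a 5.09-fold difference (log2 2.35, SE 0.0727, adjusted p = 1.42e-18). The other 2 SNARE genes moved little. Vamp2, the vesicle SNARE of most forebrain synapses, averaged 187.1 ± 20.2 CPM at 10 weeks and 179.8 ± 21.97 CPM at day 7 (log2 0.05, 95% interval -0.15 to 0.25, adjusted p = 0.635). Stx1a, the plasma-membrane syntaxin, fell by 0.19, and its adjusted p of 0.0149 became 0.0525 with the WT groups alone and 0.0887 without WT day-7 replicate 2. Markers of interneurons, where Vamp1 and Syt2 are known to be abundant, rose in 7 of 8 cases, with a summed level of 712.5 to 818.3 CPM at 10 weeks against 278.9 to 360.9 CPM at day 7; their part in the result was not tested.

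Complexins and the recycling enzymes were higher at 10 weeks where they were called. Cplx1 was at 250.4 to 323.5 CPM (median 284.2) at 10 weeks and at 149.9, 130.7, 129.7 and 130.3 CPM at day 7 (log2 1.07, SE 0.073, adjusted p = 3.51e-12). Cplx2 rose by 0.25, and that call was lost in males alone (0.15, adjusted p = 0.301) and without WT day-7 replicate 3 or 4 (adjusted p = 0.0657 and 0.0599). Cplx3, a complexin of deep cortical layers and retina, averaged 13.6 ± 2.20 CPM at 10 weeks and 11.6 ± 1.58 CPM at day 7 (log2 0.22, adjusted p = 0.162). All 3 recycling genes rose: Nsf, the ATPase that disassembles SNARE complexes, by 1.39 (SE 0.071), and its adaptors Napb by 1.08 (SE 0.0651) and Napa by 1.07 (SE 0.059), with adjusted p between 6.48e-14 and 3.73e-13 for the adaptors and 1.39e-14 for Nsf.

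At the active zone, 4 of 9 entries rose and 2 fell. Rims1 and Rims2, the RIM scaffolds that bind Rab3, Munc13 and calcium channels, rose by 1.07 (SE 0.0467, adjusted p = 7.78e-16) and 0.98 (SE 0.0575, adjusted p = 2.12e-13). Rims1 was at 308.3 to 333.6 CPM (median 317.3) at 10 weeks and at 147.5, 169.6, 139.7 and 149.0 CPM at day 7. Bsn, the scaffold bassoon, rose by 0.84 and Rab3a by 0.39. Of the Munc13 priming factors, Unc13b fell by 0.39 (SE 0.0739, adjusted p = 5.27e-05), Unc13a, the main isoform of excitatory synapses, averaged 371.0 ± 24.2 CPM at 10 weeks and 405.2 ± 23.5 CPM at day 7 (log2 -0.13, adjusted p = 0.0527), and Unc13c, the isoform best known from cerebellum, averaged 66.7 ± 15.4 CPM at 10 weeks and 58.5 ± 8.02 CPM at day 7 (adjusted p = 0.345). The main entry of Pclo, the scaffold piccolo (ENSMUSG00000061601), averaged 284.6 ± 48.1 CPM at 10 weeks and 252.9 ± 44.0 CPM at day 7 (adjusted p = 0.333), whereas the second entry (ENSMUSG00000098239) fell by 0.70 (SE 0.126, adjusted p = 3.37e-05). The second entry has no location in GENCODE M21 and carries far fewer counts, and reads of piccolo may be divided between the entries.

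The vesicular glutamate transporters moved in opposite directions with age. Slc17a7 was at 790.7 to 950.2 CPM (median 857) at 10 weeks and at 351.9, 351.9, 313.8 and 269.8 CPM at day 7 (log2 1.4, SE 0.0682, adjusted p = 5.8e-15). Slc17a6 was at 28.7 to 40.5 CPM (median 36.1) at 10 weeks and at 54.6, 58.5, 61.0 and 51.2 CPM at day 7 (log2 -0.68, SE 0.0946, adjusted p = 1.45e-06). Neither gene overlapped between the ages.

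**Figure D2:**
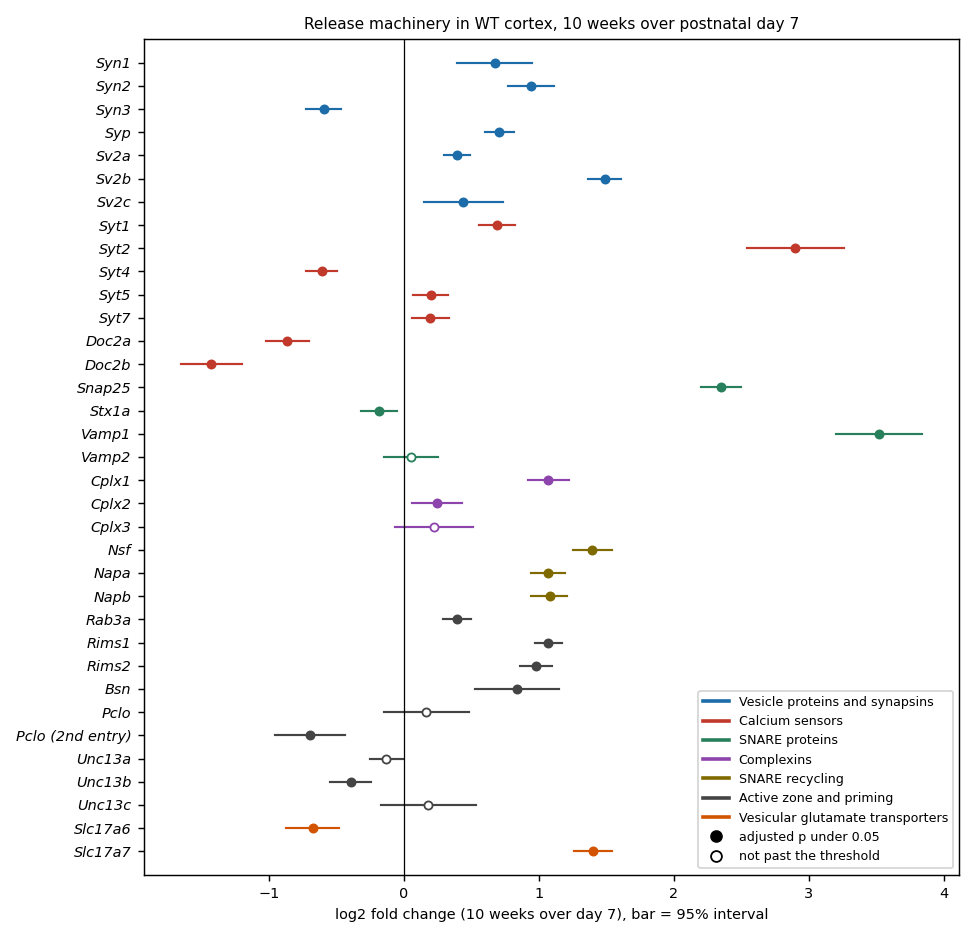
Log2 fold change of each member in WT cortex, 10 weeks over postnatal day 7 (x axis), with its 95% interval as a bar and members grouped by role in colour. Filled points passed an adjusted p of 0.05 and open points did not; Vamp1 (3.52), Syt2 (2.90) and Snap25 (2.35) lie farthest right and Doc2b (-1.43) farthest left.

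Other genes of the release pathway were taken from 6 lists with 55 genes, of which 53 passed the filter. With age in WT, 33 of the 53 rose and 18 fell, where 33.3% of all genes tested rose and 34.4% fell. The 2 with the smallest adjusted p were Erc1, an ELKS active-zone scaffold, which fell by 2.02 (62.3 CPM at 10 weeks against 251.5 CPM at day 7, SE 0.0744), and Dnm1, the dynamin that cuts endocytic vesicles free, which rose by 1.64 (863.2 against 276.6 CPM, SE 0.0646). Of the 9 other vesicle proteins 6 rose and 3 fell, with Syngr1, a synaptogyrin, at 0.73 and Svop, a transporter-like vesicle protein, at 0.62. Among 7 SNARE partners 6 rose and 1 fell, with Stxbp5l, a tomosyn, at 1.42, Napg, another SNAP adaptor, at 0.68 and Snap29, a SNARE of intracellular fusion, at -0.96. Of 8 other synaptotagmins 6 rose and 2 fell, with Syt12 at 2.45 and Syt13 at 1.49. The 16 other active-zone genes were divided equally, with 8 higher and 8 lower, and Apba1, an adaptor of Munc18, fell by 1.38 and Ppfia4, a liprin, by 1.02. Of 5 other vesicular transporters 3 rose and 2 fell, with Slc6a17, an amino acid carrier, at 0.86, Slc30a3, which loads zinc, at 1.09 and Slc18a2, which loads monoamines, at -1.1.

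At 10 weeks few members differed between mutant and WT cortex. Against WT, 1 of 35 entries passed the threshold in G34R (2.86%, background 5.59% of 21283 genes), 3 in G34V (8.57%, background 4.25%) and 1 in G34W (2.86%, background 1.63%). By direction, G34R had 1 lower and none higher (background 2.65% and 2.94%), G34V had 1 higher and 2 lower (1.57% and 2.68%), and G34W had 1 higher and none lower (0.564% and 1.07%). The median log2 fold change of the members was -0.09 in G34R, -0.033 in G34V and -0.036 in G34W, and that of all genes was -0.0035, 0.0082 and 0.0088. The G34V and G34W medians depended on single animals: without G34V replicate 1 or 3 the value was -0.078 and -0.0066, and without G34W replicate 2 or 1 it was -0.11 and 0.01, so the sign in G34W is not settled. In G34R, 30 of 35 entries had a negative value, against 50.9% of all genes, in G34V 23 against 48%, and in G34W 22 against 48.2%. The 3 comparisons share the 6 WT animals. The 95% interval of the log2 fold change lay within ±0.5 for 30 entries in G34R, 28 in G34V and 26 in G34W. An unadjusted p under 0.05 was reached by 10 members in G34R (28.6%, against 18.1% of all genes), 6 in G34V (17.1%, against 15.6%) and 9 in G34W (25.7%, against 17.1%). Levels did not overlap with WT for 1 higher (Syt4) and 1 lower (Slc17a6) member in G34V, against 4.22% and 5.86% of all genes, and for 2 higher (Vamp2 and the second Pclo entry) and 2 lower (Slc17a7 and Napa) members in G34W, against 7.35% and 9.08%.

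**Figure D3:**
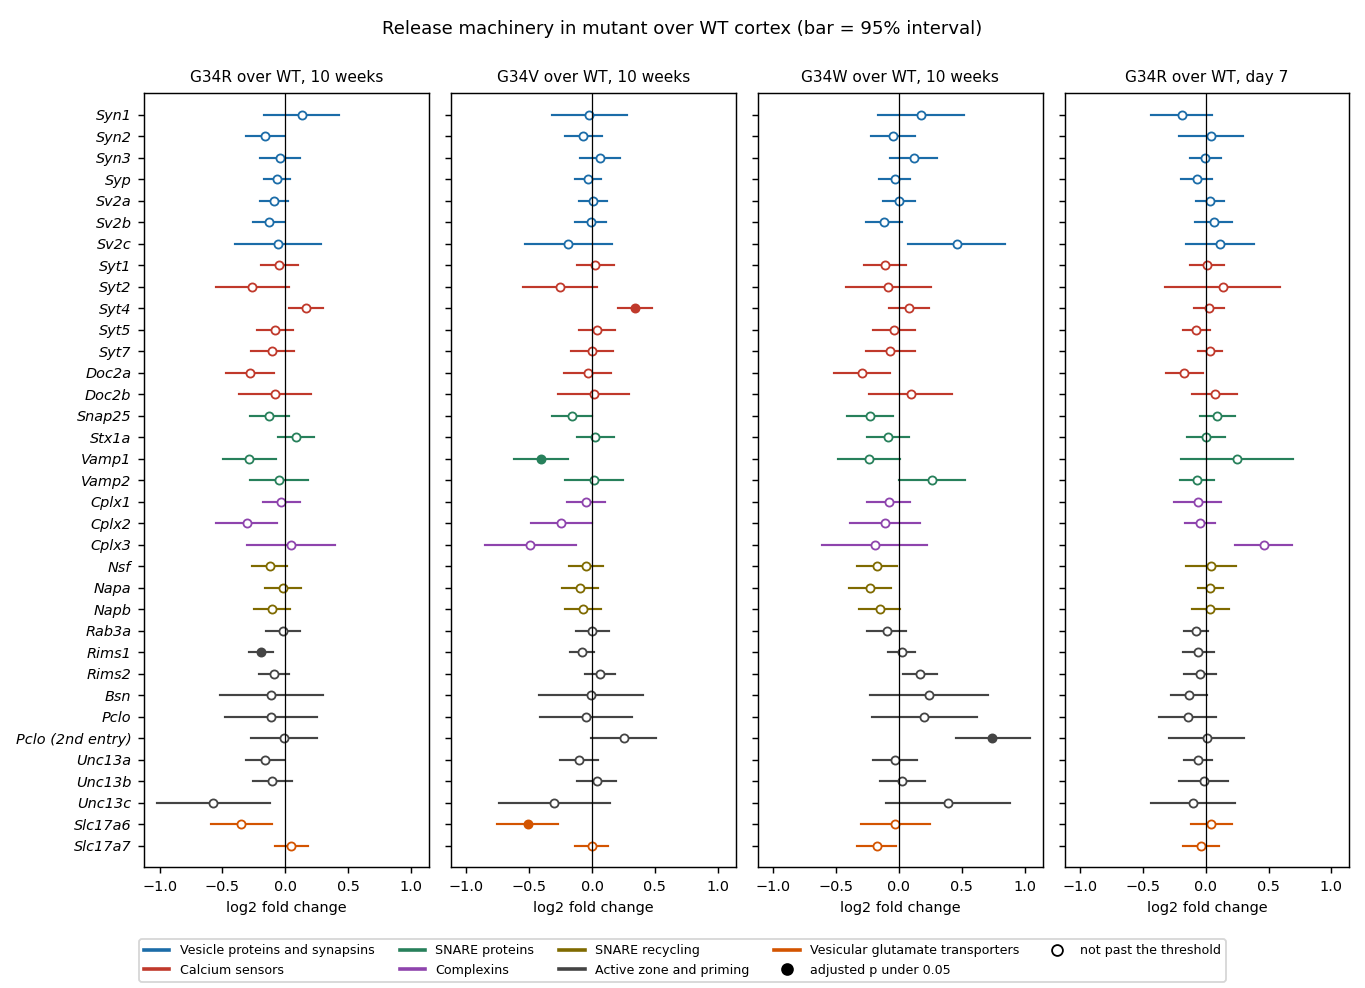
Log2 fold change (x axis) of each member in G34R, G34V and G34W over WT at 10 weeks and in G34R over WT at postnatal day 7, with its 95% interval as a bar and colours by role. Filled points passed an adjusted p of 0.05: Rims1 in G34R, Syt4, Vamp1 and Slc17a6 in G34V and the second Pclo entry in G34W.

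None of the 7 vesicle proteins and synapsins was called in G34R, G34V or G34W. Syn2 was at 405.5, 370.6 and 427.7 CPM in G34R and at 432.2 to 471.0 CPM (median 443.9) in WT. The groups did not overlap, but the adjusted p was 0.24 (log2 -0.16, SE 0.0714). Sv2c was at 28.2 and 34.2 CPM in G34W and at 18.6 to 28.8 CPM (median 21.4) in WT (log2 0.46, SE 0.18, adjusted p = 0.218). Markers of striatum, where Sv2c is known to be abundant, summed to 901.0 and 1010 CPM in the G34W animals and 442.9 to 1021 CPM in WT, and their part in the Sv2c level was not tested. Syp had intervals of -0.17 to 0.04 in G34R, -0.14 to 0.07 in G34V and -0.16 to 0.09 in G34W on the log2 scale.

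Among the calcium sensors, Syt4 rose in G34V. Its level (GRCm38 chr18:31437808-31447406, minus strand) was 281.9, 277.2 and 258.8 CPM in G34V and 200.2 to 240.8 CPM (median 212.4) in WT. Every G34V animal lay above every WT animal. The log2 fold change was 0.34 (SE 0.0642, adjusted p = 0.00428), and the call held when any animal was left out (adjusted p at most 0.0408) and within the G34V library set (0.40, adjusted p = 0.00359). In G34R Syt4 was at 237.5, 230.0 and 259.2 CPM (log2 0.17, adjusted p = 0.172) and in G34W at 216.6 and 238.8 CPM (log2 0.08, adjusted p = 0.619). Its exons overlap those of Gm26658 on the other strand.

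The sensors Doc2a and Syt2 depended on which WT libraries G34R was set against. Doc2a was at 30.9, 31.8 and 32.6 CPM in G34R and at 31.9 to 45.4 CPM (median 39.6) in WT (log2 -0.28, SE 0.0907, adjusted p = 0.0888). It passed without WT replicate 2 or 6 (adjusted p = 0.037 and 0.0264). In G34W it was at 32.8 and 30.0 CPM (log2 -0.29, adjusted p = 0.175) and in G34V at 38.3, 37.1 and 37.2 CPM (log2 -0.04). Its exons overlap those of Ino80e on the other strand. Syt2 was at 50.5, 47.0 and 44.2 CPM in G34R, at 39.1, 57.6 and 45.6 CPM in G34V and at 45.0 to 65.7 CPM (median 59.4) in WT (log2 -0.26 in G34R and -0.25 in G34V, adjusted p = 0.342 and 0.409). Syt1 had a 95% interval of -0.20 to 0.10 in G34R and Syt7 of -0.27 to 0.07.

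Of the SNARE proteins, Vamp1 fell in G34V. Its level (GRCm38 chr6:125215551-125245964, plus strand, promoter above) was 57.9, 64.5 and 55.0 CPM in G34V and 62.8 to 90.1 CPM (median 77.0) in WT. The groups overlapped by 1 G34V animal, whose value lay above the lowest WT animal. The log2 fold change was -0.41 (SE 0.1, adjusted p = 0.0305), and the call was lost without G34V replicate 1 or 3 (adjusted p = 0.127 and 0.132), with the compared groups alone (0.056) and within the G34V library set (-0.34, adjusted p = 0.133). In G34R Vamp1 was at 71.3, 63.1 and 58.4 CPM (log2 -0.29, SE 0.0996, adjusted p = 0.121, and 0.0235 without WT replicate 6) and in G34W at 66.4 and 66.8 CPM (log2 -0.24, adjusted p = 0.314). None of 8 interneuron markers was called in G34R, G34V or G34W against WT, and they summed to 683.9 to 734.9 CPM in G34V against 712.5 to 818.3 CPM in WT. Snap25, the most abundant member, was at 1971, 2046 and 1899 CPM in G34R, at 1957, 1969 and 1854 CPM in G34V, at 1707 and 1958 CPM in G34W and at 1845 to 2479 CPM (median 2146) in WT. All mutant levels lay below the WT median, which takes both library sets together, and the share of all genes of which this holds was not counted. No comparison with all WT animals passed the threshold (log2 -0.13, -0.16 and -0.23, adjusted p = 0.405, 0.317 and 0.189). Within the library set of each mutant the log2 fold change of Snap25 was -0.24 in G34R, -0.07 in G34V and -0.14 in G34W (adjusted p = 0.0189, 0.765 and 0.524).

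The complexins and recycling genes gave no call against WT at 10 weeks. Cplx3 was at 7.497, 9.73 and 11.8 CPM in G34V and at 10.4 to 16.5 CPM (median 14.1) in WT (log2 -0.49, SE 0.169, adjusted p = 0.14, and 0.0474 with DESeq2). Cplx3 is also known as a marker of layer 6b. Of 4 layer 6b markers tested, 1, Moxd1, was lower in G34V (4.68 against 8.40 CPM in WT, log2 -0.84, adjusted p = 0.001), and the 4 summed to 41.7 to 48.5 CPM in G34V against 53.3 to 61.4 CPM in WT. Moxd1 was also lower in G34R (5.29 CPM, log2 -0.67, adjusted p = 0.00432) and the sum there was 45.1 to 53.3 CPM, while the log2 fold change of Cplx3 in G34R was 0.0447. The markers' part in the Cplx3 level was not tested. Cplx2 was at 704.0, 589.3 and 663.4 CPM in G34R and at 672.9 to 995.1 CPM (median 795.7) in WT (log2 -0.31, SE 0.114, adjusted p = 0.151). Nsf did not overlap between G34R (726.5, 776.5 and 793.5 CPM) and WT (797.4 to 911.2 CPM, median 818.7), at a log2 fold change of -0.12 and an adjusted p of 0.33. Napa was at 188.3 and 177.4 CPM in G34W and at 189.8 to 238.3 CPM in WT (log2 -0.23, adjusted p = 0.153).

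At the active zone, Rims1 fell in G34R. Its level (GRCm38 chr1:22286251-22805994, minus strand, promoter above) was 278.5, 277.1 and 280.5 CPM in G34R and 308.3 to 333.6 CPM (median 317.3) in WT. The G34R animals lay close together and all below the lowest WT animal. The log2 fold change was -0.19 (SE 0.045, 95% interval -0.29 to -0.10, adjusted p = 0.0143), a fold of 0.874. The call was lost without G34R replicate 1, 2 or 3 (adjusted p = 0.0661, 0.0834 and 0.0725), within the G34R library set (log2 -0.15, adjusted p = 0.0802), and with runs of animal numbers as a block (-0.17, adjusted p = 0.143). In G34V Rims1 was at 301.1, 311.4 and 292.8 CPM (log2 -0.08, adjusted p = 0.45) and in G34W at 323.8 and 322.6 CPM (log2 0.02, adjusted p = 0.865). In G34R, 4 members lay entirely below WT, which were Rims1, Syn2, Nsf and Unc13a, and none entirely above, against 6.08% and 6.05% of all genes. Unc13a was at 328.2, 337.8 and 330.4 CPM in G34R and at 344.8 to 413.0 CPM (median 362.5) in WT (log2 -0.16, adjusted p = 0.242). Unc13c, the gene of Munc13-3, was at 45.4, 43.1 and 46.0 CPM in G34R, at 96.1 and 78.2 CPM in G34W and at 39.9 to 82.2 CPM (median 65.7) in WT. Its log2 fold change in G34R was -0.57 (SE 0.204, adjusted p = 0.155), and WT replicate 4 was the lowest WT animal; without it the value was -0.67 (adjusted p = 0.00476).

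The second Pclo entry rose in G34W. It was at 14.8 and 11.9 CPM in G34W and at 6.68 to 9.23 CPM (median 7.87) in WT, with no overlap (log2 0.74, SE 0.139, adjusted p = 0.0131). With runs of animal numbers as a block the call was lost (0.56, adjusted p = 0.173). Without G34W replicate 1 the value was 0.58 (adjusted p = 0.17), and a single G34W animal was then assumed to vary like the other groups. The main entry (GRCm38 chr5:14514918-14863459, plus strand) was at 281.7 and 372.5 CPM in G34W and at 220.7 to 356.3 CPM (median 284.8) in WT (log2 0.20, 95% interval -0.21 to 0.62, adjusted p = 0.621). The 2 G34W animals differ in sex label, and replicate 2 is the sole animal of its age labelled female. A sex covariate therefore sets that animal apart and leaves the G34W contrast to replicate 1, the higher animal. That fit cannot show whether the call of the second entry holds apart from sex.

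Of the glutamate transporters, Slc17a6 fell in G34V. Its level (GRCm38 chr7:51622006-51671119, plus strand, promoter above) was 21.9, 27.9 and 24.5 CPM in G34V and 28.7 to 40.5 CPM (median 36.1) in WT. Each G34V animal lay below each WT animal. The log2 fold change was -0.51 (SE 0.115, adjusted p = 0.0166), a fold of 0.701, and the call was lost without G34V replicate 1 or 3 (adjusted p = 0.112 and 0.0739), within the G34V library set (-0.46, adjusted p = 0.152) and with runs of animal numbers as a block (-0.53, adjusted p = 0.166). In G34R Slc17a6 was at 30.5, 24.1 and 28.6 CPM (log2 -0.35, SE 0.113, adjusted p = 0.0931, 0.0417 with DESeq2 and 0.0332 without WT replicate 6) and in G34W at 36.9 and 32.6 CPM (log2 -0.03, adjusted p = 0.935). Of 7 marker genes of thalamus, where Slc17a6 is abundant, 1, Rgs16, was lower in G34V (3.32 against 7.19 CPM in WT, adjusted p = 0.00315). The 7 genes, in 8 entries, summed to 108.9 to 130 CPM (median 129.4) in G34V and to 110.1 to 167.1 CPM (median 118.5) in WT. Rgs16 was also lower in G34R (4.18 CPM, adjusted p = 0.0238) and in G34W (2.83 CPM, adjusted p = 0.0129), where Slc17a6 was not called. The markers' part in the result was not tested. Slc17a7 was at 908.0, 799.3 and 845.3 CPM in G34V and at 790.7 to 950.2 CPM (median 857) in WT (log2 -0.00355, 95% interval -0.14 to 0.13). In G34W Slc17a7 was at 718.0 and 790.5 CPM (log2 -0.18), so the higher animal lay only just below the lowest WT animal.

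**Figure D4:**
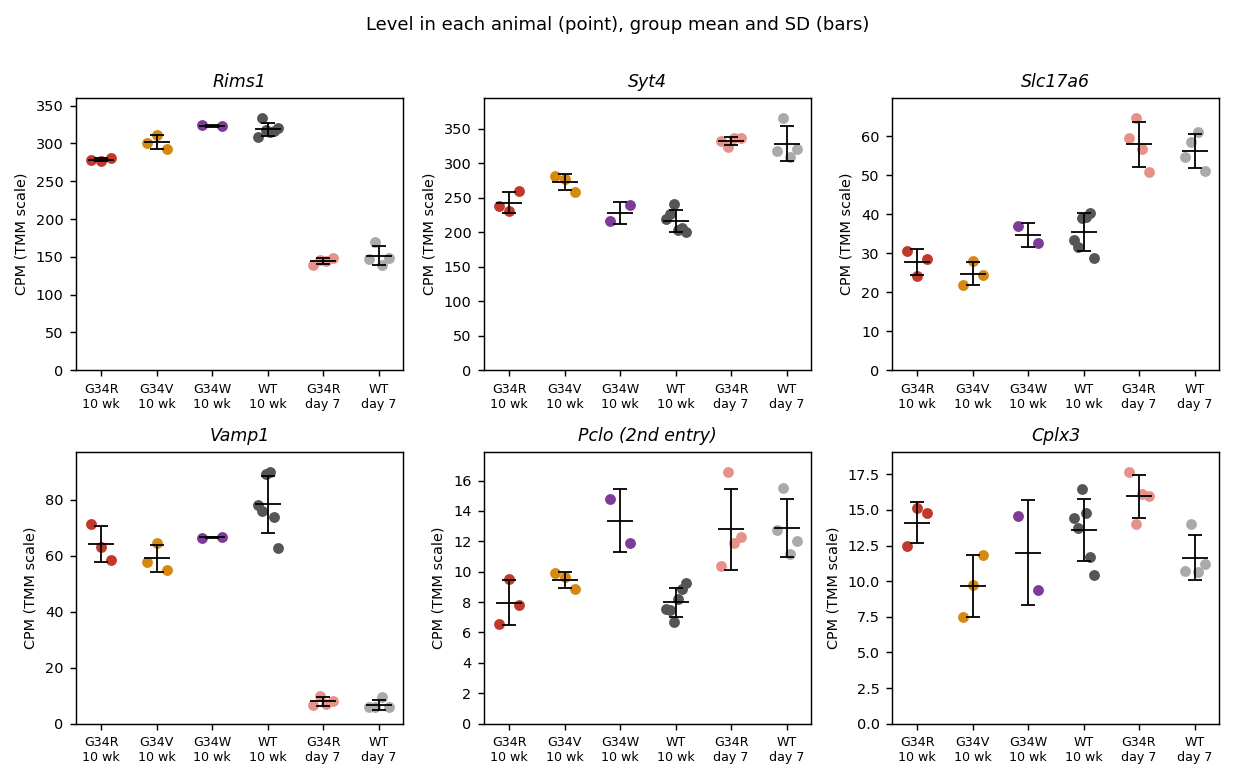
CPM on 1 TMM scale (y axes from 0) in each animal (points) with group mean and SD (bars) for Rims1, Syt4, Slc17a6, Vamp1, the second Pclo entry and Cplx3, in G34R, G34V, G34W and WT at 10 weeks and G34R and WT at postnatal day 7. The 3 G34R points of Rims1 sit at 277.1 to 280.5 CPM below all WT points at 10 weeks, and Vamp1 stays under 10 CPM in all day-7 animals.

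Set against WT libraries of its own mitochondrial-share set alone, G34R had 4 members lower and none higher (11.4% called, where 2.37% of 20163 genes were lower and 2.42% higher). Doc2a was at 30.8, 31.7 and 32.5 CPM in G34R and at 41.1, 45.1 and 45.3 CPM in these WT libraries (log2 -0.46, SE 0.0611, adjusted p = 0.00198). Syt2 was at 50.4, 46.9 and 44.1 CPM against 60.1, 60.9 and 63.1 CPM in WT (log2 -0.36, SE 0.058, adjusted p = 0.00539). Snap25 was at 1967, 2042 and 1896 CPM against 2251, 2297 and 2474 CPM in WT (log2 -0.24, SE 0.0475, adjusted p = 0.0189), and Vamp1 at 71.2, 62.9 and 58.3 CPM against 78.0, 80.2 and 89.2 CPM in WT (log2 -0.35, SE 0.0765, adjusted p = 0.0302). In each of the 4 genes the G34R libraries lay below those 3 WT libraries. The genes were picked by the test on these same libraries, so the separation adds no support. The share of all genes separated in this way was not counted. The WT libraries of the other set overlapped G34R in Doc2a (31.8 to 38.1 CPM), Syt2 (44.9 to 65.6 CPM), Vamp1 (62.7 to 89.9 CPM) and Snap25 (1841 to 2089 CPM). The WT libraries of the lower and higher sets did not overlap each other in Doc2a and Snap25, and did overlap in Syt2 and Vamp1. One of the WT animals had a library in each set. G34V kept Syt4 as its sole called member in its own set.

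**Figure D5:**
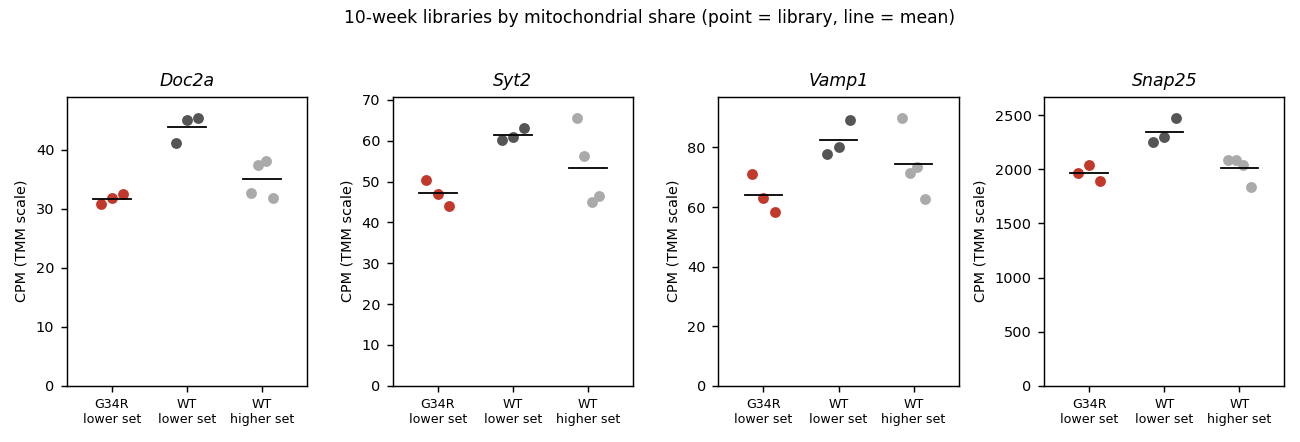
CPM (y axes from 0) in each 10-week library (points, line at the mean) for Doc2a, Syt2, Vamp1 and Snap25, in G34R and WT libraries with a mitochondrial share below 1.1% (lower set) and in WT libraries above it (higher set). The G34R libraries lie below the WT libraries of the lower set in all 4 panels and overlap those of the higher set. The 4 genes were picked by the test on the lower-set libraries, so their separation there adds no support.

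Between the substitutions few members were called. All G34R libraries lay in the lower mitochondrial-share set and all G34V and G34W libraries in the higher set. In G34R against G34V or G34W, substitution and library set therefore cannot be told apart. Of the 35 entries none was called between G34R and G34V (background 0.23%) or between G34V and G34W (background 0.15%, with 0.0376% higher), and 1 was called between G34R and G34W (2.86%, background 1.87%; this one was lower, background 0.926%). Unadjusted p fell under 0.05 for 5 members between G34R and G34V (14.3%, against 10.9% of all genes) and 7 between G34V and G34W (20%, against 11.7%), and DESeq2 also called none in either. The called entry was the second Pclo entry, at 6.57, 9.504 and 7.81 CPM in G34R against 14.8 and 11.9 CPM in G34W (log2 -0.75, SE 0.159, adjusted p = 0.0256). That call was lost without G34R replicate 1 or 3 or G34W replicate 1 (adjusted p = 0.0858, 0.0735 and 0.148), with the compared groups alone (0.0718) and with runs of animal numbers as a block (0.603). Unc13c had the widest gap, with 45.4, 43.1 and 46.0 CPM in G34R against 96.1 and 78.2 CPM in G34W (log2 -0.96, SE 0.254, adjusted p = 0.0824, and 0.00774 with DESeq2). Rims1 was 278.5, 277.1 and 280.5 CPM in G34R against 323.8 and 322.6 CPM in G34W (log2 -0.22, SE 0.0575, adjusted p = 0.0647, and 0.00138 with DESeq2). For Syt4, G34R over G34V gave a log2 fold change of -0.17 (95% interval -0.33 to -0.01, adjusted p = 0.418), which did not pass the threshold. Slc17a6 gave 0.16 (interval -0.11 to 0.44), so its lower level in G34V is not shown to differ from that in G34R. Levels did not overlap for 1 higher and 5 lower members in G34R against G34V (9.24% and 9.41% of all genes), for 4 higher and 10 lower in G34R against G34W (17.2% and 16.1%), and for 6 higher and 7 lower in G34V against G34W (13.9% and 13.5%).

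At day 7 none of the 35 entries was called between G34R and WT (background 0.308% of 20455 genes), and 2 had an unadjusted p under 0.05 (5.71%, against 7.75% of all genes). DESeq2 and a fit with no filter on low counts each called 1, Cplx3. Cplx3 was at 17.7, 14.02, 16.1 and 15.97 CPM in G34R and at 10.7, 13.98, 10.6 and 11.2 CPM in WT. The lowest G34R animal lay just above the highest WT animal, and Cplx3 was the 1 member whose groups did not overlap upwards, with 0 downwards (2.3% and 2.92% of all genes). The log2 fold change was 0.46 (SE 0.103, adjusted p = 0.148, 0.0152 without the filter and 0.01 with DESeq2). Doc2a was at 60.6, 55.8, 70.2 and 60.7 CPM in G34R and at 71.0, 71.7, 64.7 and 71.8 CPM in WT (log2 -0.17, SE 0.0664, adjusted p = 0.574). The members called at 10 weeks had day-7 values of -0.06 for Rims1 (95% interval -0.18 to 0.07), 0.03 for Syt4 (-0.09 to 0.14), 0.04 for Slc17a6 (-0.12 to 0.21) and 0.25 for Vamp1 (-0.19 to 0.69). For 32 entries the interval lay within ±0.5, and the median over the members was 0.0015, against 0.0012 over all genes.

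The change in the G34R effect between day 7 and 10 weeks was tested as an interaction in 1 fit of all 22 animals. None of the 35 entries was called (background 1.16%, with 0.562% higher and 0.602% lower), and 3 had an unadjusted p under 0.05 (8.57%, against 11% of all genes). These were Vamp1 (log2 difference of the effects -0.52, SE 0.21, adjusted p = 0.339), Slc17a6 (-0.39, SE 0.149, adjusted p = 0.301) and Sv2b (-0.19, SE 0.0897, adjusted p = 0.446). Without WT day-7 replicate 3, which had the highest Vamp1 level of its group, the Vamp1 value was -0.73 (adjusted p = 0.0487). DESeq2 called no member in this comparison. For Rims1 the value was -0.13 (95% interval -0.27 to 0.02), so its lower level in G34R at 10 weeks is not shown to differ from the day-7 effect.

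The 53 other tested genes of the pathway gave few calls in the mutants. At 10 weeks 1 fell in G34R (background of calls over all genes 5.59%), none was called in G34V (4.25%) and 1 fell in G34W (1.63%), and at day 7 none was called in G34R (0.308%). The gene that fell in G34R was Rab3c, a vesicle GTPase related to Rab3a (340.2 against 414.8 CPM in WT, log2 -0.29, SE 0.0786, adjusted p = 0.0398). In G34W it was Rab27b, a GTPase of vesicle and granule docking (33.8 against 44.1 CPM in WT, log2 -0.38, SE 0.0831, adjusted p = 0.028). The median log2 fold change of the 53 genes was -0.043 in G34R, -0.033 in G34V and -0.043 in G34W.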

How the data were processed

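The authors deposited 1 table of raw counts per Ensembl gene for 23 libraries of mouse cortex. Per the submitters' processing notes the build was mm10 and the tools were featureCounts 1.4.4, STAR 2.3.0e, Trimmomatic 0.32 and bedtools 2.27.1. The annotation release and strand setting are not stated in the sources used. Groups came from the genotype and age labels. The 2 libraries of 1 WT animal were summed. Genes were filtered with filterByExpr, scaled by TMM and tested with edgeR 4.0.16 (R 4.3.3, robust quasi-likelihood, Benjamini-Hochberg over all genes, threshold 0.05), with sex-specific genes removed. There was 1 fit for 10 weeks (14 animals, 10 residual degrees of freedom), 1 for day 7 with sex as a covariate (8 animals, 5 degrees of freedom) and 1 for all animals (age in WT and the interaction, 16 degrees of freedom). The SE is the fold change over the square root of F. Locations and exon lengths are from GENCODE M21. The fit was run on simulated data with the same spread for every gene and no difference between library sets. That run therefore does not cover unequal spread or library-set differences. Alternatives included DESeq2 1.42.0. The members, lists and library sets were chosen with earlier results of these data known. All members are named; from each pathway list, up to 3 genes past the threshold with the smallest adjusted p; marker lists are given by counts, sums or genes past the threshold, mainly against WT. Replicates are separate animals by their numbers. The count and sum of the projection-neuron markers are not reported here.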

Additional observations from a re-analysis of the deposited data

Results flagged for a closer look

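Of 105 combinations of an entry and a group with 4 or 6 animals, 9 held an animal far from the others by Dixon's test at the 95% level, and chance alone gives about 1 in 20. In WT at 10 weeks the highest Syn3 level was 45.9 CPM in replicate 2 and the highest Napb level 765.5 CPM in replicate 4. In G34R at day 7 the highest Cplx2 level was 675.3 CPM in replicate 3. In WT at day 7 replicate 3 stood apart with the highest Vamp1 level (9.42 CPM) and the lowest Rims2 (65.5 CPM) and Doc2a (64.7 CPM) levels, replicate 2 with the highest Cplx3 (13.98 CPM) and the lowest Doc2b (53.3 CPM) levels, and replicate 1 with the highest Cplx1 level (149.9 CPM). The second Pclo entry (ENSMUSG00000098239) differed between G34R and G34W at 10 weeks, with a log2 fold change of -0.75 in edgeR's quasi-likelihood test.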

How the results depend on the processing

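Every alternative fit kept the direction of each called member. The number of members called moved by over 1.5 times in these cases. For G34R against WT at 10 weeks it was 3 with DESeq2, 2 with runs of animal numbers as a block, 4 within the G34R library set and 0 to 4 with 1 animal left out, against 1; all genes called were then 1660, 863, 965 and 692 to 1093, against 1190. For G34V it was 1 within its library set and 1 to 3 with 1 animal left out, against 3. In that set 1.75% of all 20989 genes were lower and 0.724% higher. With 1 animal left out 497 to 856 of all genes were called, against 905. For G34W it was 2 with number runs as a block and 0 to 1 with 1 animal left out, against 1, and all genes called were 70 and 58 to 596, against 347. For G34R against G34W it was 4 with DESeq2, 2 with the compared groups alone, 0 with the block and 0 to 1 with 1 animal left out, against 1. For G34V against G34W it was 2 with the block (Syn1 and Sv2c), for G34R at day 7 it was 1 without the filter and 1 with DESeq2, and for the difference between ages 0 to 1 with 1 animal left out, each against 0. For that difference 133 to 281 of all genes were called with 1 animal left out, against 261. Where no count over all genes is given, a move in the member count cannot be read as particular to the members. The age count was 29 to 31 with 1 animal left out, against 30, and all genes called were 14382 to 15006, against 15184. With the block the median over the members was -0.14 in G34R, -0.07 in G34V and 0.023 in G34W against WT. It was then -0.17 for G34R against G34W and -0.13 for G34V against G34W. With sex as a covariate, which sets G34W replicate 2 apart, the median in G34W against WT was -0.1. The cause of these moves was not tested. With the block, Doc2a (-0.46, adjusted p = 0.0087) and Vamp1 (-0.38, adjusted p = 0.0354) were lower in G34R, and Sv2c (0.69, adjusted p = 0.0432) and Vamp2 (0.37, adjusted p = 0.0338) higher in G34W. With age in males alone, Sv2c lost its call (adjusted p = 0.0834). RLE scaling changed no call and moved the median of all genes by at most 0.0065. The 2 libraries of 1 WT animal differed beyond sampling noise (chi-square per degree of freedom 15.7). No paired analysis was possible because the labels give animals of the compared groups no shared replicate number; runs of neighbouring animal numbers, whose meaning is not given, served as the block instead.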
